A study of Saccharomyces cerevisiae with 4 samples.

Results

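The genes described here are 51 budding yeast genes of DNA repair other than homologous recombination: nucleotide excision repair, direct reversal, base excision repair, mismatch repair, post-replication repair with translesion synthesis, end resection and end joining, and the structure-specific nucleases. They were taken by name, 51 of the 5656 genes that had a probe set of their own on the array, and where a gene had several such probe sets the brightest represented it. Expression had been measured in Saccharomyces cerevisiae on 4 one-colour Affymetrix arrays, each with RNA from its own culture in the rich medium YPD: 2 arrays of strain YCB600, labelled hst3hst4, and 2 of strain YCB617, labelled wild-type. Both strains are of the FY background, and nothing further of their genotypes is given in the sources used here. HST3 and HST4 encode NAD-dependent deacetylases of the sirtuin family, best known for removing the acetyl group from lysine 56 of histone H3, and the comparison addresses the effect of losing both on transcript levels.

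Each repair pathway handles its own kind of lesion. Excision repair cuts out a damaged base or a short damaged strand and fills the gap, direct reversal mends the base in place, mismatch repair removes replication errors, post-replication repair lets a fork pass a lesion by a bypass polymerase or by template switching, and end joining reseals broken ends. In budding yeast some repair genes are known to be transcribed more after DNA damage, through the Mec1, Rad53 and Dun1 checkpoint kinases that also induce the genes of ribonucleotide reductase, while many repair proteins are regulated mainly by modification and recruitment.

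The arrays had been scaled to a common trimmed mean signal of 150.2, and their median signals lay between 37.5 and 41.2. HST3 read 0.4 and 0.5 in the cultures labelled hst3hst4, against 13.7 and 25.3 in those labelled wild-type, whereas HST4 went against the labels, with 38.0 and 39.3 against 3.6 and 0.9, so the groups are named by their labels throughout, and mutant below means the label hst3hst4. The sources used here do not say whether the HST4 probes fall inside the deletion. All 7 markers of a cells were measured above the filter, and MFA2, an a-factor gene, read 1868 to 2304 on the 4 arrays. All 7 had log2 fold changes below 0, and STE6, the a-factor exporter, fell (log2 fold change -1.05, limma adjusted p = 0.0284). Of 4 alpha-cell markers, none was at 0, their signals ran from 7.2 to 79.4, and 3 had log2 fold changes above 0. All 4 damage reporters rose, with HUG1, an inhibitor of ribonucleotide reductase, at 1946 and 1861 against 23.9 and 33.3, and so did all 4 general stress reporters, whose median log2 difference between the wild-type cultures was -0.999 (replicate 2 minus replicate 1). For SPT15, the TATA-binding protein gene, the control signal near the 3' end divided by that near the 5' end was 3.82 and 3.70 in the cultures labelled hst3hst4, against 4.64 and 5.20 in those labelled wild-type. The same ratio went the other way for SRB4, a Mediator subunit gene, at 2.34 and 1.90 against 1.87 and 1.63, and overlapped for ACT1, the actin gene, at 1.73 and 1.78 against 1.70 and 1.88. The part of these differences in the values below was not tested.

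Among the repair genes, 1 rose and 0 fell. DIN7, a mitochondrial nuclease related to EXO1 and named for its induction by DNA damage, was 2.98-fold higher on the arrays labelled hst3hst4, and the other 45 genes tested did not pass. Fold changes are on the log2(signal + 3.3) scale, 3.3 being the 10th percentile of the signals, and understate the change of dim genes. A call is an adjusted p under 0.05 in limma, a linear model fitted here across all 7420 probe sets that passed a filter on dim signals. Of the 51 genes, 46 passed that filter, and REV7, RAD30, SAE2, MUS81 and MMS4 did not. The rise of 1 in 46 genes, 2.17%, stood beside a background of 2.2% of all 5271 genes tested that were called higher, and the 0 lower calls stood beside 0.531%. At an unadjusted p under 0.05, 3 of the 46 were higher (DIN7, MMS2 and OGG1), 6.52% against 10.2% of all genes, and 0 were lower, against 8.97%.

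**Figure D1:**
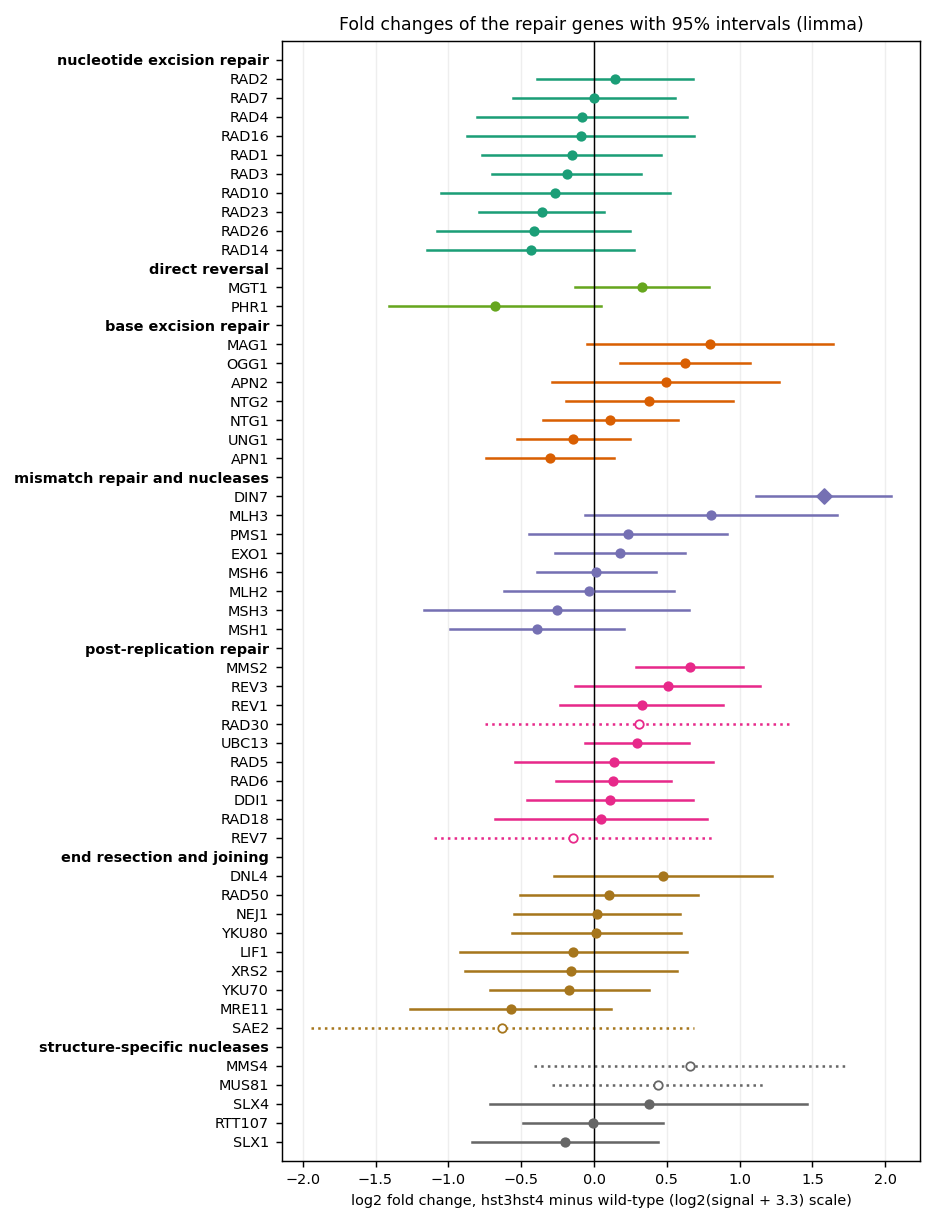
Log2 fold changes (arrays labelled hst3hst4 minus wild-type, horizontal axis) of the 51 repair genes, grouped by pathway and ordered within each by value, with 95% intervals from limma. The diamond is the called gene, DIN7 at 1.58, open circles with dotted intervals are the 5 genes below the filter, from a fit without it, and most intervals cross 0.

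As a group the repair genes lay close to the average gene. Their median log2 fold change was 0.019, beside -0.014 for all genes tested, and 26 were above 0 and 20 below. The quartiles were -0.17 and 0.32 for the repair genes and -0.25 and 0.24 for all genes. Both arrays labelled hst3hst4 lay above both wild-type arrays for 13 repair genes (28.3%, against 25.1% of all genes) and below both for 9 (19.6%, against 27.4%), while the groups overlapped for 24. The difference between the wild-type cultures was larger than the difference between the strains for 26 of the 46 genes, 56.5%, beside 47.8% of all genes. For 31 of the 46 genes, 67.4%, the 95% interval of the fold change lay within 2-fold in either direction, beside 76.3% of all genes; for the other 15, DIN7 among them, it reached past 2-fold.

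**Figure D2:**
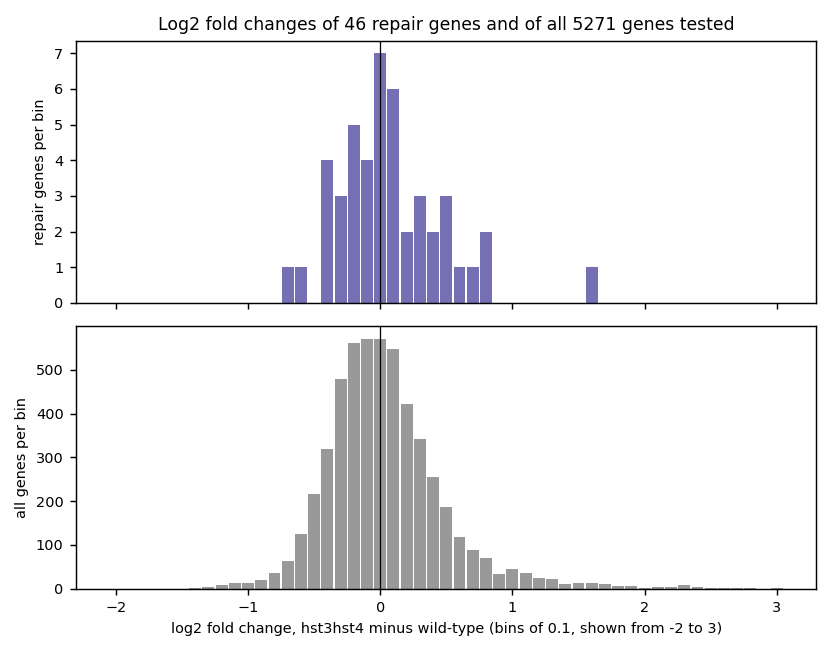
Number of genes per bin of log2 fold change (bin width 0.1) for the 46 repair genes tested (upper) and all 5271 genes tested (lower). Both histograms are centred near 0, with medians of 0.019 and -0.014, and DIN7 stands alone at the right of the upper one.

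DIN7 gave signals of 85.1 and 86 in the cultures labelled hst3hst4, against 29.2 and 24.0 in those labelled wild-type. The groups did not overlap, and the 2 values within each strain lay close together. The log2 fold change was 1.58 (SE 0.20, limma adjusted p = 0.0106), with a 95% interval of 2.16-fold to 4.12-fold, and the 4 pairings of arrays across strains gave 1.44 to 1.71. It ranked 67th from the top among the 5271 genes tested. In RNA from whole cultures a change in every cell and a change in the share of cells that express a gene cannot be told apart. The call was lost without hst3hst4 replicate 1 (log2 fold change 1.58, adjusted p = 0.183), without hst3hst4 replicate 2 (1.57, 0.221) and with no filter on dim probe sets (1.58, 0.0573). Few probe sets of any kind were called in those settings, 9 and 4 of 7420 without the first and the second array and 36 of 9275 with no filter, against 196 of 7420 in the fit reported here. Where 1 array is left out, its strain has a single array, which the fit takes to vary like the pair of the other strain. The size of the difference stayed within 1.32 to 1.94 under every setting tried. On the chromosome, in the gene order of the R64 assembly, DIN7 lies between YDR262W, an open reading frame (log2 fold change 0.51, adjusted p = 0.189), and AKR1, a palmitoyl transferase (0.34, 0.359), and neither passed.

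EXO1, the 5' to 3' exonuclease of mismatch repair and end resection to which DIN7 is related, read 49.7 and 51 in the cultures labelled hst3hst4, against 42.3 and 46 in those labelled wild-type. The groups did not overlap, but the log2 fold change was 0.18 (SE 0.19) and did not pass, and its interval ran from 0.829-fold to 1.54-fold.

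In mismatch repair MSH3 and MSH6 take part in binding the mispair, and PMS1, MLH2 and MLH3 act next. Of the 8 genes tested in the group with DIN7 and EXO1, DIN7 rose and 7 did not pass, beside 2.2% of all genes tested called higher. MSH6 read 103.4 and 112.8 against 100 and 114.0, so the strains overlapped almost completely (log2 fold change 0.02, interval 0.762-fold to 1.34-fold). MSH3 read 13.3 and 7.3 against 10 and 15.6 (log2 fold change -0.26), also overlapping. MSH1, the mitochondrial member of the family, read 34.1 and 22.2 against 35.1 and 39.4 (log2 fold change -0.39, adjusted p = 0.441). Both mutant values of MSH1 lay below both wild-type values, by little for the first.

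MLH3, an endonuclease subunit known for its part in meiotic crossing over, had the next highest log2 fold change after DIN7, a value that rested on wild-type replicate 2. Its signals were 44.6 and 36.3 in the cultures labelled hst3hst4, against 33.9 and 13.4 in those labelled wild-type. The log2 fold change was 0.81 (SE 0.37, adjusted p = 0.277). It was 1.38 without wild-type replicate 1 (adjusted p = 0.00815) and 0.23 without wild-type replicate 2 (0.706). The first of these rests on a single wild-type array, with the spread taken from the hst3hst4 pair alone, and 865 of 7420 probe sets were called in it. PMS1 read 16.1 and 17.1 against 12.7 and 14.6 (log2 fold change 0.23), and MLH2 had a log2 fold change of -0.03 with overlapping groups. HSM3, a proteasome chaperone first found through mismatch repair, and MSH5, a meiotic MutS homologue, were the 2 other genes of the pathway tested, and neither passed (log2 fold changes -0.13 and -0.04).

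**Figure D3:**
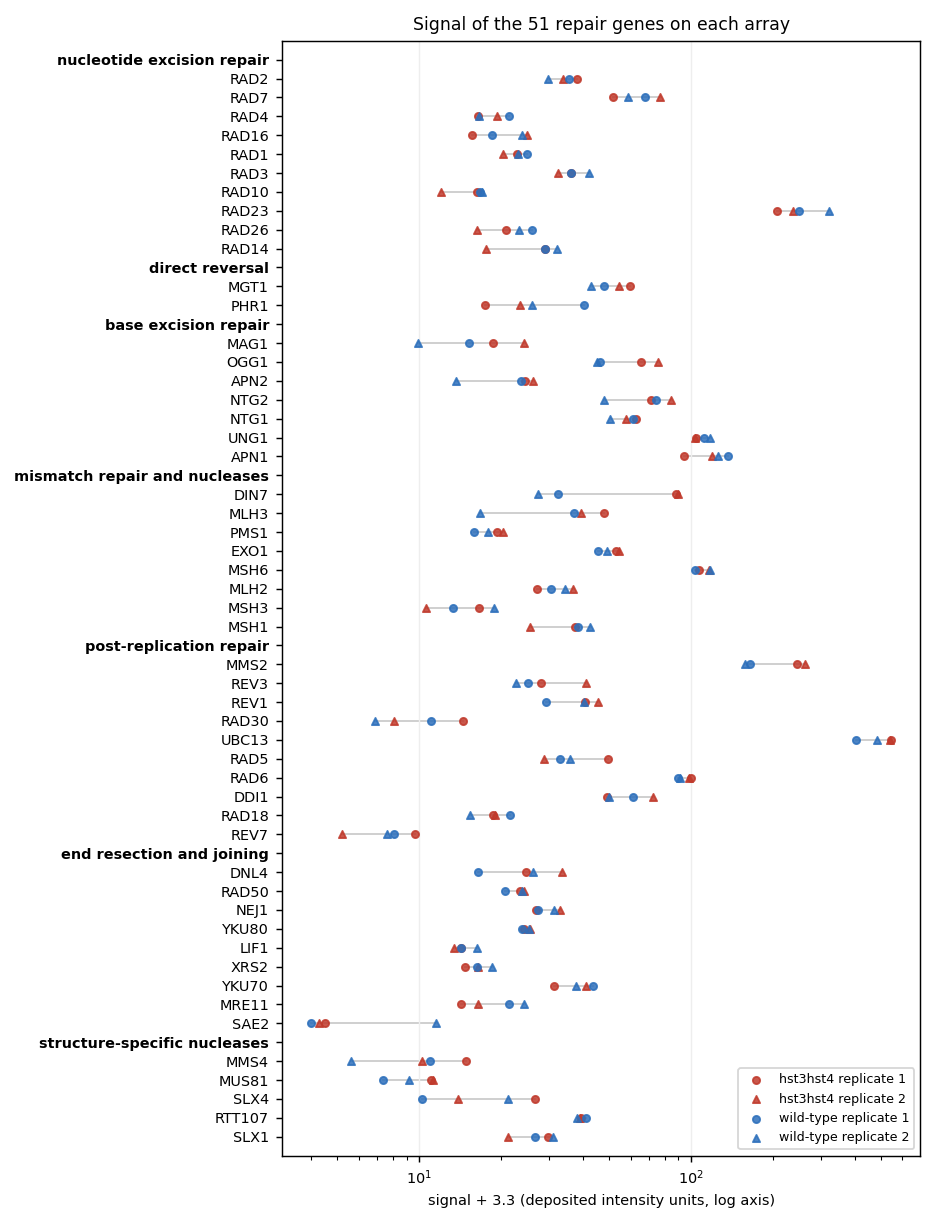
Signals of the 51 repair genes on each array (signal + 3.3, log axis), red for arrays labelled hst3hst4 and blue for wild-type, circles for replicate 1 and triangles for replicate 2. For DIN7 both red points, at 85.1 and 86 before the 3.3 is added, lie far from both blue points, while for most genes the colours lie within each other's range or close by.

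In post-replication repair the RAD6 and RAD18 pair attaches a single ubiquitin to the sliding clamp, which admits bypass polymerases, and RAD5 with the MMS2 and UBC13 pair extends it to a chain for template switching. None of the 8 genes tested passed, with 1, MMS2, at an unadjusted p under 0.05 in limma, and all 8 had log2 fold changes above 0, also after quantile normalization and after centring each array. The 8 include DDI1, which is described below with its neighbour MAG1. Without wild-type replicate 2 the number above 0 was 6, with RAD18 and DDI1 below. Without hst3hst4 replicate 1 it was 7, with RAD5 below, and without hst3hst4 replicate 2 it was 7, with DDI1 below. Of all 5271 genes tested, 2547 were above 0. The 2 genes of the group below the filter, REV7 and RAD30, were at -0.14 and 0.31 in the fit without it. MMS2, the ubiquitin-conjugating variant, came closest to a call of the genes that did not pass. It read 241.3 and 260.3 in the cultures labelled hst3hst4, against 161.2 and 154.3 in those labelled wild-type, which did not overlap and left a gap wider than either group's own spread. The log2 fold change was 0.66 (SE 0.16, adjusted p = 0.0797), an interval of 1.22-fold to 2.03-fold. Without wild-type replicate 1 it was 0.69 (adjusted p = 0.0391), in the setting with a single wild-type array in which 865 of 7420 probe sets were called, against 196 with all arrays.

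UBC13, the catalytic partner of MMS2, read 542.9 and 538.6 against 403.2 and 481.9. The mutant arrays were both above the wild-type arrays, and the log2 fold change was 0.29 (SE 0.15, adjusted p = 0.336). RAD6, the ubiquitin-conjugating enzyme, read 97 and 95.2 against 86.6 and 88.2 (log2 fold change 0.13, interval 0.833-fold to 1.44-fold). RAD18, its ubiquitin ligase partner, read 15.4 and 15.8 against 18.4 and 12.1, with overlap (log2 fold change 0.05). RAD5, the helicase and ligase that works with MMS2 and UBC13, read 46.4 and 25.6 against 29.7 and 32.7, and its 2 mutant cultures differed from each other more than the strains did (log2 fold change 0.14).

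Among the bypass polymerases, REV3, the catalytic subunit of polymerase zeta, read 24.8 and 37.8 against 21.8 and 19.5 (log2 fold change 0.51, adjusted p = 0.346), and REV1, a deoxycytidyl transferase, read 37.5 and 42.3 against 25.9 and 37.2 (0.33, 0.489). In both genes the mutant arrays were above the wild-type arrays, narrowly for REV1, whose nearest arrays read 37.5 and 37.2. REV7, the second subunit of polymerase zeta, stayed between 1.9 and 6.4, and RAD30, polymerase eta, between 3.6 and 11.2; both were below the filter, at a mean signal of about 8.97, and overlapped.

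Base excision repair starts with a glycosylase that removes the damaged base, after which an endonuclease cuts the abasic site. None of the 7 genes tested passed, with 1, OGG1, at an unadjusted p under 0.05 in limma. Of the 7, 5 had log2 fold changes above 0, beside 2547 of all 5271 genes tested. The number was also 5 after quantile normalization and after centring, and 4 without wild-type replicate 2. The median was 0.38, with 0.64 when wild-type replicate 1 was left out and 0.066 when wild-type replicate 2 was. OGG1, the 8-oxoguanine glycosylase, read 62.2 and 72.4 in the cultures labelled hst3hst4, against 42.9 and 41.9 in those labelled wild-type. The groups did not overlap and the wild-type pair was tight, with a log2 fold change of 0.62 (SE 0.19, adjusted p = 0.138) and an interval of 1.13-fold to 2.10-fold. Its neighbours PIF1, a helicase, and NTE1, a phospholipase, had log2 fold changes of 0.27 and 0.14 and did not pass.

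MAG1, the 3-methyladenine glycosylase, read 15.4 and 21.1 against 12 and 6.6, all near the filter. The groups did not overlap, and the log2 fold change was 0.80 (SE 0.36, adjusted p = 0.271), with a wide interval of 0.968-fold to 3.11-fold. MAG1 and DDI1 are the 1 pair of adjacent genes among the 51, transcribed away from each other from a shared intergenic region and known to be induced together by alkylation. DDI1, a ubiquitin receptor with a protease fold, read 45.8 and 69.1 against 57.8 and 46.6. The DDI1 arrays overlapped, with a log2 fold change of 0.11 (SE 0.25, adjusted p = 0.837) and an interval of 0.728-fold to 1.60-fold.

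The remaining glycosylases and endonucleases were nearer to 0 or varied between the wild-type cultures. APN2, the minor abasic endonuclease, read 21.3 and 22.9 against 20.5 and 10.4 (log2 fold change 0.49, adjusted p = 0.456), and here the second wild-type array alone was low. APN1, the major abasic endonuclease, read 91.3 and 116.7 against 133.7 and 123.0, lower on both mutant arrays (-0.30, adjusted p = 0.413). UNG1, the uracil glycosylase, read 101.1 and 99.9 against 108.4 and 114.0, a small separation with a log2 fold change of -0.14 and an interval of 0.692-fold to 1.19-fold. NTG1 and NTG2, which remove oxidised pyrimidines, had log2 fold changes of 0.11 and 0.38 with overlapping groups.

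**Figure D4:**
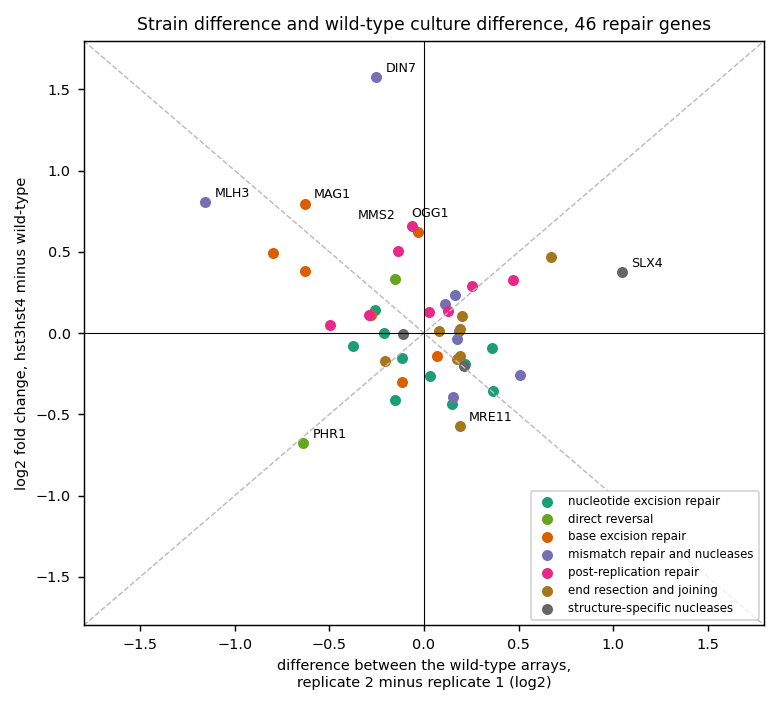
Log2 fold change between strains (vertical axis) against the difference between the 2 wild-type arrays (replicate 2 minus replicate 1, log2, horizontal axis) for the 46 repair genes tested, coloured by pathway. Points inside the left and right sectors of the dashed diagonals, 26 genes including MLH3 and SLX4, differed more between the wild-type cultures than between the strains; DIN7, MMS2 and OGG1 lie high and close to the vertical line.

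Nucleotide excision repair was the pathway with most genes on the lower side. None of its 10 genes passed, and none had an unadjusted p under 0.05 in limma; 8 had log2 fold changes below 0, with a median of -0.17, and 9 were below 0 after quantile normalization or centring, 6 without hst3hst4 replicate 1. When the arrays were scaled on bacterial and phage hybridisation controls instead, which raises all genes alike, 2 of the 10 were below 0, and of all 5271 genes tested 778 were, against 2724 under the deposited scaling. RAD23, which with RAD4 recognises the lesion, read 203.3 and 235.1 in the cultures labelled hst3hst4, against 247.1 and 319.7 in those labelled wild-type. The mutant arrays were both below the wild-type arrays, but the wild-type arrays differed from each other by as much as the strains (0.37 between cultures, log2 fold change -0.36, SE 0.19, adjusted p = 0.327). RAD4 itself overlapped, with a log2 fold change of -0.08, while its chromosomal neighbour GCG1, which degrades glutathione, rose (1.30, limma adjusted p = 0.0158). GCG1 was the 1 called gene among 82 tested neighbours of the repair genes, beside 2.2% of all genes tested called higher and 0.531% lower.

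RAD14, which verifies damage, read 25.8 and 14.3 against 25.8 and 28.9 (log2 fold change -0.44, adjusted p = 0.469), with the second mutant array low and the first equal to a wild-type array. RAD26, the factor that couples repair to transcription, read 17.6 and 13.1 against 22.7 and 20.1, lower on both mutant arrays (-0.41, adjusted p = 0.459). The nuclease RAD2, which cuts 3' of the lesion, had the highest log2 fold change of the pathway, with signals of 34.8 and 30.6 against 32.3 and 26.4 (0.14, interval 0.764-fold to 1.60-fold), and overlapped.

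The 2 subunits of the nuclease that cuts 5' of the lesion, RAD1 and RAD10, had log2 fold changes of -0.15 and -0.27, and RAD3, a helicase of the transcription factor TFIIH, one of -0.19. RAD7 and RAD16, partners in repair of untranscribed DNA, were at 0.00 and -0.09. RAD7 read 48.5 and 74.0 against 64.7 and 55.4, with the 2 mutant cultures on either side of the wild-type values. RAD10 overlaps the open reading frame YML096W by 6 bp, and is the 1 of the 51 genes that overlaps another annotated gene. Of 13 other genes of this pathway listed, mainly TFIIH subunits, 12 were tested and 0 passed (0 at an unadjusted p under 0.05 in limma); 10 had log2 fold changes above 0, led by ELC1, an elongin subunit, at 0.48 and TFB5 of TFIIH at 0.45.

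Direct reversal is represented by PHR1, the light-dependent photolyase, and MGT1, the methyltransferase that repairs alkylated guanine. PHR1 read 14.2 and 20.3 in the cultures labelled hst3hst4, against 37.3 and 22.8 in those labelled wild-type, the lowest log2 fold change among the genes tested, -0.68 (SE 0.31, adjusted p = 0.275). The strains did not overlap, but the wild-type cultures differed by 0.64 in size. The interval ran from 0.378-fold to 1.03-fold. MGT1 read 56.3 and 51.2 against 44.5 and 39.7 (log2 fold change 0.33, adjusted p = 0.391), with no overlap.

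At broken ends the RAD50, MRE11 and XRS2 complex binds first and starts resection with SAE2, while the YKU70 and YKU80 heterodimer, the ligase DNL4 and its partners LIF1 and NEJ1 rejoin the ends. None of the 8 genes tested passed, and none had an unadjusted p under 0.05 in limma; 4 were above 0 and 4 below, with a median of -0.063. MRE11, the nuclease, read 11.0 and 13.2 against 18.1 and 21.1, lower on both mutant arrays (log2 fold change -0.57, SE 0.30, adjusted p = 0.327). XRS2 read 11.5 and 13.2 against 13.1 and 15.2 (-0.16), and RAD50 read 20.2 and 21.1 against 17.5 and 20.6 (0.10), both with overlap. RAD50 had 5 further probe sets, all dim and below the filter, whose log2 fold changes ran from -0.96 to 0.76. SAE2 read 1.2, 1.0 and 0.7 on 3 arrays and 8.3 on wild-type replicate 2, below the filter.

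The Ku subunits were near 0. YKU80 read 21.1 and 22.2 against 20.7 and 22.1 (log2 fold change 0.01, interval 0.676-fold to 1.51-fold), and YKU70 read 28.1 and 38 against 40.2 and 34.4, with overlap (-0.17). DNL4 read 21.5 and 30.3 against 13.2 and 23.0 and overlapped (0.47, adjusted p = 0.456). NEJ1, known as a gene expressed in haploid cells and repressed in a/alpha diploids, read 23.6 and 29.6 against 24.1 and 28.0 (0.02, interval 0.684-fold to 1.51-fold). The 4 haploid markers had a median log2 fold change of -0.57, and 0 of them passed. At an unadjusted p under 0.05 in limma 3 of the 4 were lower, as were 4 of the 7 a-cell markers, beside 8.97% of all genes. At the same threshold 2 of the 4 alpha-cell markers were higher, beside 10.2% of all genes. LIF1 had a log2 fold change of -0.14 with overlap.

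The nucleases that cut branched DNA could be followed in part. MUS81 and MMS4, which act as a pair, were both below the filter, with signals of 4.1 to 8.0 and 2.3 to 11.6. SLX4, the scaffold of the SLX1 nuclease, read 23.3 and 10.6 in the cultures labelled hst3hst4, against 7.0 and 18.0 in those labelled wild-type, so both strains spanned nearly the same range (log2 fold change 0.38, SE 0.47). SLX1 itself read 26.4 and 17.9 against 23.5 and 27.7, with overlap (log2 fold change -0.20). RTT107, a scaffold that binds SLX4 and is recruited to stalled forks, was tight on all arrays at 36.3 and 35.7 against 37.7 and 34.7 (-0.01, interval 0.714-fold to 1.39-fold). None of the 3 genes tested passed, and none had an unadjusted p under 0.05 in limma.

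Across pathways, 9 of the 51 genes were listed as damage-inducible from general knowledge of this yeast, a list that may not be complete: PHR1, MAG1, DDI1, RAD2, RAD7, RAD18, RAD23, RAD6 and DIN7. DIN7 rose, 0 fell and 8 did not pass, with a median of 0.11. Of all genes tested, 2.2% were called higher and 0.531% lower, and the list was chosen with earlier results of these data known. On the same arrays the checkpoint-controlled reporters RNR2, RNR3 and RNR4 had log2 fold changes of 1.50, 3.55 and 1.46. For 6 of the 9 genes the 95% interval lay within 2-fold in either direction, and MAG1, PHR1 and DIN7 were the other 3. Of 5 genes listed as transcribed mainly around the start of S phase (MSH6, PMS1, UNG1, EXO1 and RAD5), 0 passed, 0 had an unadjusted p under 0.05 in limma, and all 5 intervals lay within 2-fold.

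Of 35 other listed genes of these pathways, 31 were tested and 0 passed, also at an unadjusted p under 0.05 in limma. Those of base excision, end joining and post-replication repair included MGS1, an ATPase that acts with the clamp, at 15.5 and 16.1 against 9.5 and 6.8 (log2 fold change 0.75, SE 0.34, adjusted p = 0.269). The groups did not overlap, at signals near the filter. POL31, a subunit of polymerase delta, had the lowest log2 fold change, -0.45 (adjusted p = 0.339). RAD27, the flap nuclease and the chromosomal neighbour of APN1, read 107.2 and 106.2 against 109.6 and 115.2 (-0.07), and CDC9, the replicative DNA ligase, read 95 and 96 against 47.0 and 120.6, with the wild-type cultures on either side of the mutant ones.

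The count of called repair genes depended on the scaling. The 9 bacterial and phage hybridisation controls were lower on the arrays labelled hst3hst4 by a mean log2 difference of -0.36. Scaling the arrays on them, a choice made after the data were seen, raised the median log2 fold change of all genes tested to 0.34 and that of the repair genes to 0.38. Under it 5 repair genes were called higher (DIN7, MMS2, OGG1, MLH3 and UBC13) and 0 lower, beside 14.4% of all genes called higher. That scaling adds the same amount to every log2 fold change, with MMS2 at 1.02 and OGG1 at 0.98, so the order of the genes is that of the deposited scaling by construction. It also shifts each array by its own amount, so the spread within each strain changed, and the p-values did too. In limma the adjusted p of DIN7 went from 0.0106 to 3.9e-08 and that of MLH3 from 0.277 to 0.0086. For HUG1 it went from 1.3e-05 to 2.4e-133, far smaller than 2 arrays per strain can support. The p-values and calls under this scaling therefore overstate the evidence. How far the further calls rest on the changed spread was not tested. The median SE of a log2 fold change was 0.26 for the repair genes, and precision is limited by having 2 arrays per strain.

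**Figure D5:**
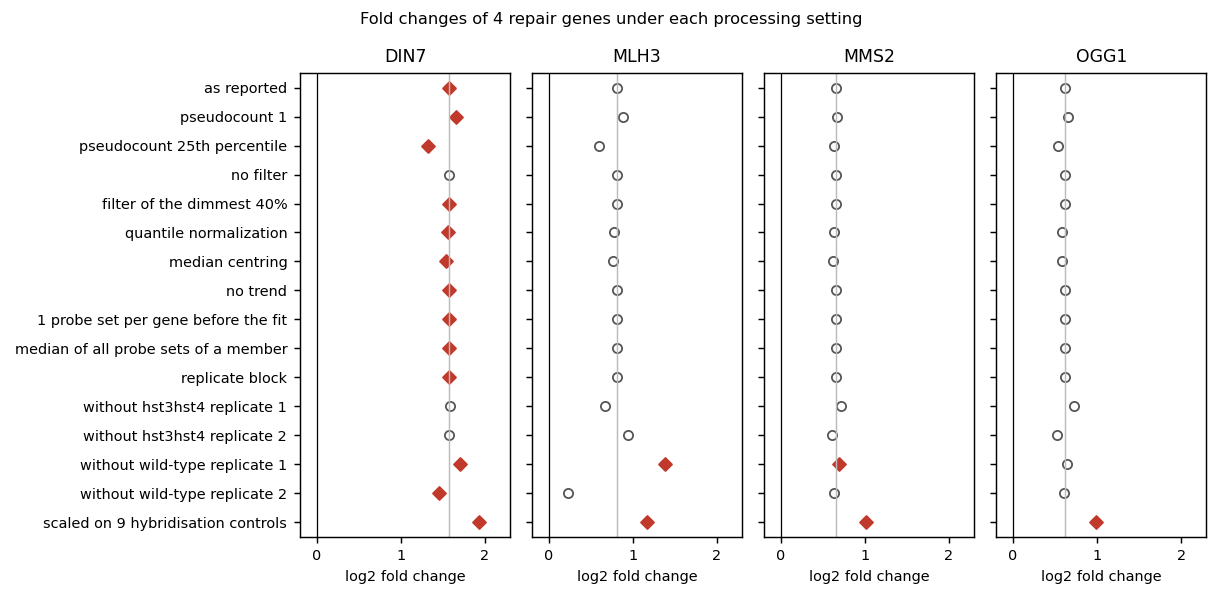
Log2 fold change (horizontal axes) of DIN7, MLH3, MMS2 and OGG1 under each processing setting (rows). Filled diamonds have an adjusted p under 0.05, open circles do not, and the grey line is the value as reported; DIN7 stays between 1.32 and 1.94, while MLH3 moves between 0.23 and 1.38 depending on which wild-type array is left out.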

How the data were processed

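Total RNA was amplified once with an oligo-dT primer and biotin-labelled, per the labels' protocols. The authors deposited 1 intensity per probe set and array, on a linear scale, made with GCOS 1.4 and MAS5 per the submitters' processing notes (MAS5 version and scale target: not given in the sources used here). After trimming 2% at each end the array means of the linear signals were nearly equal. Changes are therefore relative to that trimmed mean, to which bright probe sets contribute most.

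Of 9335 probe sets, 60 controls were left out. Names come from the platform annotation, updated by gene identifier to the R64 gene table: 6504 probe sets had 1 gene, all matched; 328 had several and 2443 none listed, and none of these was named. The brightest probe set (mean log2 signal) stood for each gene. Signals were transformed as log2(signal + 3.3), the dimmest 20% of probe sets by mean were left out (mean signal under about 8.97), and the other 7420 entered limma 3.58.1 in R 4.3.3 (lmFit, then eBayes with a trend of variance on mean), two-sided, Benjamini-Hochberg adjusted over all of them, at a threshold of 0.05. Intervals are 95% intervals from that fit, which has 2 residual and 5.75 prior degrees of freedom. For the 5 genes below the filter, values come from a fit without it. P-values cover the spread between cultures, which were independent per the series' design.

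The 51 genes, the pathway lists and the other lists were chosen with earlier results of these data known, so lists get counts and medians and no test. Values on every array are given for called genes and the 2 highest and 2 lowest of each pathway; other genes with array values were chosen for their role or after their values were seen. Alternatives were a pseudocount of 1 or 12.9 (the 25th percentile), a filter of 0 or 40%, quantile normalization, median centring, no trend, 1 probe set per gene, all probe sets of a gene, the replicate number as a block, and each array left out. Figures were drawn with matplotlib 3.10.9.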

Additional observations from a re-analysis of the deposited data

How the results depend on the processing

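The count of 1 repair gene called higher was 0 when dim probe sets were kept and 0 to 3 with 1 array left out. It was 5 when scaled on the hybridisation controls, a choice made after the data were seen, with p-values that overstate the evidence. Without either hst3hst4 array the call of DIN7 was lost (log2 fold changes 1.58 and 1.57), as it was with no filter (1.58); without wild-type replicate 1, MLH3 and MMS2 were called besides DIN7. Calls over all probe sets moved too, from 196 of 7420 to 9 and 4 without hst3hst4 replicate 1 and 2, to 865 without wild-type replicate 1, to 337 without wild-type replicate 2 and to 36 of 9275 with no filter. The count of 0 called lower held under every setting. The median log2 fold change of 0.019 was 0.11 with the dimmest 40% left out, where 25 genes were tested, -0.022 after median centring, 0.019 to 0.062 with 1 array left out, and 0.38 when scaled on the hybridisation controls, which raises every gene alike; for the other settings the cause was not tested. Of the 46 log2 fold changes, 15 changed sign when scaled on the hybridisation controls and 0 to 4 under the other settings that keep all arrays. The setting with the dimmest 40% left out covered 25 of the 46. With 1 array left out, 6 to 8 changed sign. None of the genes that changed sign was called. The replicate number as a block gave 1 gene called higher and 0 lower, with DIN7 at an adjusted p of 0.00543. The labels do not say that a number marks a shared batch, and the differences between numbered arrays correlated with r = -0.041 across probe sets, so the samples share a number and nothing more is drawn from the block. Dim signals limit REV7, RAD30, SAE2, MUS81 and MMS4, whose values are near the level where mismatch-corrected signals are noisy.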
